A study of Homo sapiens with 6 samples.

Results

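The phagocyte NADPH oxidase genes were chosen by symbol from a list of 8: CYBB, CYBA, NCF1, NCF4, RAC1, RAC2, HVCN1 and CYBRD1. Of these 8, 7 had a row among the 26810 gene rows used here, and NCF4 is not analysed here. The libraries came from U-937, a human acute myeloid leukemia line with monocytic features that the labels describe as carrying a KMT2A-MLLT10 fusion. That fusion is the labels' statement alone and was not checked here. Cells of one group received the guide sgMETTL1.3 against METTL1, which encodes the catalytic subunit of a tRNA N7-methylguanosine methyltransferase, and cells of the control group received the guide sgNS. Each group held 3 libraries, all cells came from 1 Cas9-expressing clone, and all were selected with blasticidin at 10 µg/ml and hygromycin B at 200 µg/ml and harvested on day 8 to 10 after lentiviral transduction. The comparison addressed how the guide against METTL1 alters poly(A)-selected RNA, and since 1 guide was used, off-target effects of that guide and effects of losing METTL1 cannot be told apart.

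The phagocyte oxidase passes electrons from cytosolic NADPH across the membrane to oxygen and so makes superoxide, which phagocytes use against ingested microbes. CYBB (NOX2, the catalytic chain) and CYBA together form the membrane cytochrome b, which is silent until a cytosolic complex docks onto it. That complex includes NCF1, the organizer, and NCF4, which binds a phosphoinositide of the phagosome membrane, and it acts with the GTPase RAC1 or RAC2. HVCN1 is a voltage-gated proton channel that offsets the charge moved by the oxidase. CYBRD1 is no subunit: it encodes a ferric reductase of another cytochrome b family, and it is described apart from the others.

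The deposited values are TPM, which count transcripts per length and per library total, multiplied by 1 factor per library, so that synthetic ERCC spike-in RNAs sum to the same total in each, and they are called scaled TPM here. The factor was 1.03, 0.832 and 0.949 in the sgMETTL1.3 libraries and 1.13, 1.23 and 1.21 in the sgNS libraries, so undoing it (values as TPM) raises sgMETTL1.3 relative to sgNS. Over all tested genes the median log2 fold change came to -0.32 on the deposited scale and 0.01 as TPM, and both scales are given below. The read depth is unknown. Between 12134 and 12505 genes per library had a value of at least 1. The library sgMETTL1.3 replicate 1 stood apart: over genes, which are not independent, its deviation from the other sgMETTL1.3 libraries had a Spearman correlation of 0.834 with the GC content of the transcripts, and member results, and list counts that it moves by over 1.5 times, are given with and without it. METTL1 itself had 8.28, 5.94 and 7.42 scaled TPM in the sgMETTL1.3 libraries, against 19.7, 22.0 and 20.3 in the sgNS libraries, and its log2 fold change was -1.41 (limma adjusted p = 2.41e-06). A transcript level is only an indirect check of a Cas9 cut. Nothing in the labels ties the replicates to separate cultures. The p-values therefore speak only of the spread among these libraries, which may be technical. In the deposited-scale fit without sgMETTL1.3 replicate 1, most genes took their spread wholly from a trend over all tested genes. The p-values of that fit thus do not measure the spread of a single gene among its own libraries. In bulk RNA, fewer cells that make a transcript and less of it per cell cannot be told apart.

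CYBB and NCF1 were lower after sgMETTL1.3 on both scales, whereas CYBA, the partner of CYBB, did not pass the test on either with all 6 libraries and fell on the deposited scale without sgMETTL1.3 replicate 1. RAC1 and HVCN1 fell on the deposited scale and did not pass as TPM, RAC2 passed on neither scale, and CYBRD1 rose on both. In counts, 4 of the 7 genes fell, 1 rose and 2 did not pass on the deposited scale, where 49.3% of all 12449 tested genes fell and 6.4% rose. As TPM, 2 fell, 1 rose and 4 did not pass, where 25.3% of 12447 tested genes fell and 24.8% rose. With so few genes and these backgrounds, the share of the 7 that changed is not a result about the oxidase, and the account below is of single genes. The median log2 fold change of the 7 was -0.38 on the deposited scale and -0.02 as TPM, near that of all genes. All 7 had a value of at least 1 in all 6 libraries, so none entered the test through 1 group alone.

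**Figure D1:**
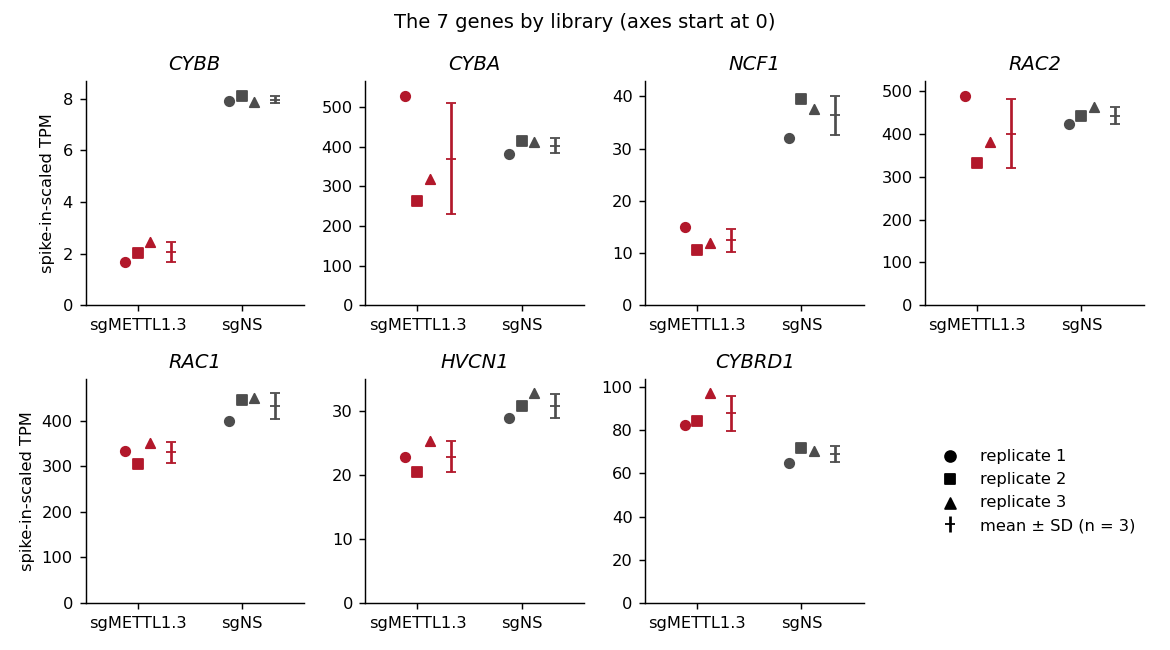
Scaled TPM (vertical axes, each from 0) of the 7 genes in the sgMETTL1.3 and sgNS libraries, with replicates marked by shape and mean ± SD (n = 3) beside them. CYBB and NCF1 lie far lower in the sgMETTL1.3 libraries, at 1.68 to 2.44 and 10.5 to 14.9, and CYBA and RAC2 are spread by replicate 1 of sgMETTL1.3, at 529 and 489.

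CYBB, on chromosome X at 37780011 to 37813461 (GRCh38, plus strand), had 1.68, 2.04 and 2.44 scaled TPM in the sgMETTL1.3 libraries, against 7.89, 8.11 and 7.85 in the sgNS libraries. Every sgMETTL1.3 library lay below every sgNS library. The mean was 2.05 ± 0.379 after sgMETTL1.3 and 7.95 ± 0.141 after sgNS (SD, n = 3 each), which is 3.87-fold lower after sgMETTL1.3. The log2 fold change on the log2(value + 1) scale, which understates a gene at this level, was -1.56 with an SE of 0.133 (limma adjusted p = 1.36e-06). As TPM, CYBB had 1.70, 2.57 and 2.68 in the sgMETTL1.3 libraries and 7.24, 6.82 and 6.71 in the sgNS libraries, which is -1.27 on the log2 scale (SE 0.13; limma adjusted p = 0.0004). Without sgMETTL1.3 replicate 1, its lowest library, the log2 fold change was -1.47 on the deposited scale and -1.13 as TPM.

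CYBA lies on chromosome 16 at 88643283 to 88651152 (minus strand) and was present at a far higher level than CYBB. It had 529, 262 and 319 scaled TPM in the sgMETTL1.3 libraries, against 381, 416 and 411 in the sgNS libraries. The groups overlapped: replicate 1 of sgMETTL1.3 was above all controls and the other sgMETTL1.3 libraries below them. The mean was 370.2 ± 140.5 after sgMETTL1.3 and 403 ± 18.8 after sgNS (SD, n = 3 each), with a log2 fold change of -0.19 and an SE of 0.25 (limma adjusted p = 0.567) on the deposited scale and 0.18 (adjusted p = 0.42) as TPM. Without replicate 1, CYBA fell on the deposited scale (-0.47, limma adjusted p = 2.86e-05), while as TPM its log2 fold change was -0.04 (adjusted p = 0.179), with 330.5 and 351 TPM in the remaining sgMETTL1.3 libraries against 349.5 to 352 in the sgNS libraries.

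CYBB and NCF1 fell while CYBA did not pass the test with all 6 libraries. PU.1, the factor encoded by SPI1, is known to act on CYBB and NCF1. For these reasons the upstream windows of CYBB, NCF1 and CYBA are shown. They are the 250 bases before the RefSeq start (GRCh38.p14), from 5′ to 3′ on the gene's strand, and capitals mark GAGGAA, the core letters of PU.1 sites, which reads TTCCTC where it lies on the other strand.
CYBB, chrX:37779809-37780058, plus strand: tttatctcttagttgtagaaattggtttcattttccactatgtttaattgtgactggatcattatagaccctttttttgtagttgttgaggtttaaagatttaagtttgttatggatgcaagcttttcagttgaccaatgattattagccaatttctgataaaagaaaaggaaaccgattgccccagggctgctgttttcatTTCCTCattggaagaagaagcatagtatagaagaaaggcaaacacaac
NCF1, chr7:74773761-74774010, plus strand: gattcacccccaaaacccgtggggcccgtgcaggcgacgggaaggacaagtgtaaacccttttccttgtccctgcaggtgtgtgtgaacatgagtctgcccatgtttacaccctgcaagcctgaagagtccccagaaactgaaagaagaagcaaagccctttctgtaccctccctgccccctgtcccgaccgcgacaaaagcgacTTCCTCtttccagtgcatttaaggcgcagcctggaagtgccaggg
CYBA, chr16:88651054-88651303, minus strand: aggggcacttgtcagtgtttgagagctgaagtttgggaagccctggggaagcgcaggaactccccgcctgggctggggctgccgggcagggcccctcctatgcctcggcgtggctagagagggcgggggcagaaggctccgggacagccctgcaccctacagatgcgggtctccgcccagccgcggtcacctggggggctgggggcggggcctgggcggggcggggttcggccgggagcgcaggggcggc
The CYBB and NCF1 windows each held 1 such match, on the reverse strand, and the CYBA window held 0. Both strands were searched, and 8277 of 35116 windows of this length in the RefSeq table (23.6%) held at least 1 match. A second motif, GAAANNGAAA, in which the half-site GAAA of interferon regulatory factors stands as a tandem pair, occurred at 2 places in the CYBB window and 1 in the NCF1 window, against 0 in the CYBA window and 3.0% of all windows with at least 1. No match of one motif shared bases with the other in these windows. CYBRD1 had 2 windows in the table, of which 1 held GAGGAA. The GC content was 34.0% for the CYBB window, 56.4% for NCF1 and 73.6% for CYBA. A match is a description of the letters and does not show that a factor binds there. The windows were picked from these results. Without sgMETTL1.3 replicate 1, CYBA fell on the deposited scale (-0.47) and did not pass as TPM (-0.04), so the contrast behind that choice depends on library and scale. The part of these motifs in the results was not tested.

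NCF1 lies on chromosome 7 at 74773962 to 74789315 (plus strand). It had 14.9, 10.5 and 11.9 scaled TPM in the sgMETTL1.3 libraries, against 32.1, 39.4 and 37.5 in the sgNS libraries. The groups were well apart. The mean was 12.5 ± 2.2 after sgMETTL1.3 and 36.3 ± 3.74 after sgNS (SD, n = 3 each), which is 2.92-fold lower after sgMETTL1.3, and the log2 fold change was -1.48 with an SE of 0.135 (limma adjusted p = 2.18e-06). As TPM the mean was 13.8 ± 1.08 after sgMETTL1.3 and 31.5 ± 1.87 after sgNS (SD, n = 3 each), or -1.14 on the log2 scale (limma adjusted p = 0.000126). Without sgMETTL1.3 replicate 1 these log2 fold changes were -1.61 and -1.19.

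Reads of NCF1 are hard to tell from those of its near-identical copies NCF1B, at 73220624 to 73235945, and NCF1C, at 75156639 to 75172044, on the same chromosome. In the GENCODE release 29 transcripts, 837 of the 1297 windows of 100 bases along the main coding transcript of NCF1 (64.5%) occurred unchanged in a transcript of NCF1B or NCF1C. The stretch below is shown because it holds a short repeat that differs between the gene and most, but not all, transcripts of its copies. Capitals mark that repeat, which is GTGT in 3 of 3 NCF1 transcripts that span it and GT in the NCF1C transcript. In NCF1B it is GT in 2 of 3 transcripts, the form printed here, and GTGT in 1.
NCF1: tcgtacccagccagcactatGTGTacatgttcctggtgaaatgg
NCF1B: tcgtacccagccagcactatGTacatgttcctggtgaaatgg
NCF1C: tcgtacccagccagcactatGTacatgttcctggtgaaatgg
NCF1C had 8.09, 5.02 and 7.60 scaled TPM in the sgMETTL1.3 libraries, against 22.3, 21.3 and 23.2 in the sgNS libraries, and it fell by 1.58 on the log2 scale (limma adjusted p = 5.12e-06). NCF1B had 2.64, 1.3 and 1.73 scaled TPM after sgMETTL1.3 and 4.72, 6.36 and 6.63 after sgNS, and fell by 1.27 (limma adjusted p = 0.000135). All 3 symbols therefore fell, also as TPM. Their sum was 25.6, 16.9 and 21.3 in the sgMETTL1.3 libraries and 59.2, 67.0 and 67.3 in the sgNS libraries. It was 3.04-fold lower on average after sgMETTL1.3 (exact two-sided permutation p = 0.1, the smallest that 3 against 3 can give). Because TPM is per length, this sum can still depend on how reads were split among transcripts of unlike length. NCF1 made up 58.9 ± 3.29% of that sum after sgMETTL1.3 and 56.2 ± 2.27% after sgNS (SD, n = 3; exact permutation p = 0.4).

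C17orf62, an older symbol of CYBC1, the chaperone of the CYBB and CYBA pair, chosen after its values were seen, had 51.3, 30.2 and 36.6 scaled TPM after sgMETTL1.3 and 42.2, 47.0 and 45.7 after sgNS. It was spread like CYBA, with replicate 1 of sgMETTL1.3 on top, and its log2 fold change was -0.22 (limma adjusted p = 0.307), and 0.14 (adjusted p = 0.364) as TPM. Without that library it fell on the deposited scale (-0.42, limma adjusted p = 0.000303), against 0.00 as TPM. Of 14 rows of oxidase relatives and accessory genes, 5 were tested. On the deposited scale NCF1B and NCF1C fell and 0 rose (limma, with 0 also at an unadjusted p under 0.05), with a median log2 fold change of -0.22. As TPM the same 2 fell and 1 rose. Over all tested genes 49.3% fell and 6.4% rose on the deposited scale, and 25.3% and 24.8% as TPM. Without sgMETTL1.3 replicate 1, 4 of the 5 fell on the deposited scale, where 61.4% of tested genes fell.

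RAC2, the Rac GTPase of blood cells, lies on chromosome 22 at 37225261 to 37244448 (minus strand). It had 489, 332 and 381 scaled TPM in the sgMETTL1.3 libraries, against 422, 441 and 463.5 in the sgNS libraries. The groups overlapped through replicate 1 of sgMETTL1.3, and the log2 fold change was -0.16 (SE 0.132, limma adjusted p = 0.321), and 0.20 (adjusted p = 0.0638) as TPM. Without replicate 1, RAC2 fell on the deposited scale (-0.31, limma adjusted p = 0.00631) and rose as TPM (0.12, adjusted p = 0.00377), so its direction depends on the scale. RAC1, the more widely expressed Rac GTPase, lies on chromosome 7 at 6374523 to 6403977 (plus strand). It had 334, 305 and 350.2 scaled TPM in the sgMETTL1.3 libraries, against 398, 445 and 449.7 in the sgNS libraries. Every sgMETTL1.3 library was below every control, and RAC1 fell by 0.38 on the log2 scale (SE 0.0992, limma adjusted p = 0.00495). As TPM the groups overlapped, at 339 to 385 after sgMETTL1.3 and 365 to 385 after sgNS, with a log2 fold change of -0.02 (adjusted p = 0.785). The fall of RAC1 was thus close to the median of all genes on the deposited scale. Its log2 fold change without sgMETTL1.3 replicate 1 was -0.40 on the deposited scale and 0.04 as TPM.

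HVCN1, on chromosome 12 at 110627841 to 110704950 (minus strand), had 22.7, 20.5 and 25.3 scaled TPM in the sgMETTL1.3 libraries, against 28.8, 30.7 and 32.7 in the sgNS libraries. The groups did not overlap, and HVCN1 fell by 0.42 on the log2 scale (SE 0.114, limma adjusted p = 0.00705). As TPM the groups overlapped, at 23.0, 25.8 and 27.7 after sgMETTL1.3 and 26.4, 25.8 and 28.0 after sgNS, and the log2 fold change was -0.07 (adjusted p = 0.525). The exons of HVCN1 share 635 bases with TCTN1 on the opposite strand, and whether counting used strand is not given in the sources used here, so reads there could come from either gene. Without sgNS replicate 3, HVCN1 missed the threshold on the deposited scale (-0.37, limma adjusted p = 0.0516). Its log2 fold change without sgMETTL1.3 replicate 1 was -0.42 on the deposited scale and 0.00 as TPM.

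CYBRD1, on chromosome 2 at 171522247 to 171558133 (plus strand), reduces ferric iron at the plasma membrane. It had 82.5, 84.1 and 97.1 scaled TPM in the sgMETTL1.3 libraries, against 65.0, 71.9 and 70.3 in the sgNS libraries. Every sgMETTL1.3 library was above every control. The mean was 87.9 ± 7.98 after sgMETTL1.3 and 69.1 ± 3.63 after sgNS (SD, n = 3 each), and CYBRD1 rose by 0.34 on the log2 scale with an SE of 0.104 (limma adjusted p = 0.0133). As TPM it had 83.6, 106.0 and 107 after sgMETTL1.3 and 59.5, 60.5 and 60.2 after sgNS, and rose by 0.70 on the log2 scale (limma adjusted p = 0.00144). Without sgNS replicate 1 it missed the threshold on the deposited scale (0.30, limma adjusted p = 0.0709). When sgMETTL1.3 replicate 1 was left out instead, the log2 fold change of CYBRD1 was 0.38 on the deposited scale and 0.81 as TPM.

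**Figure D2:**
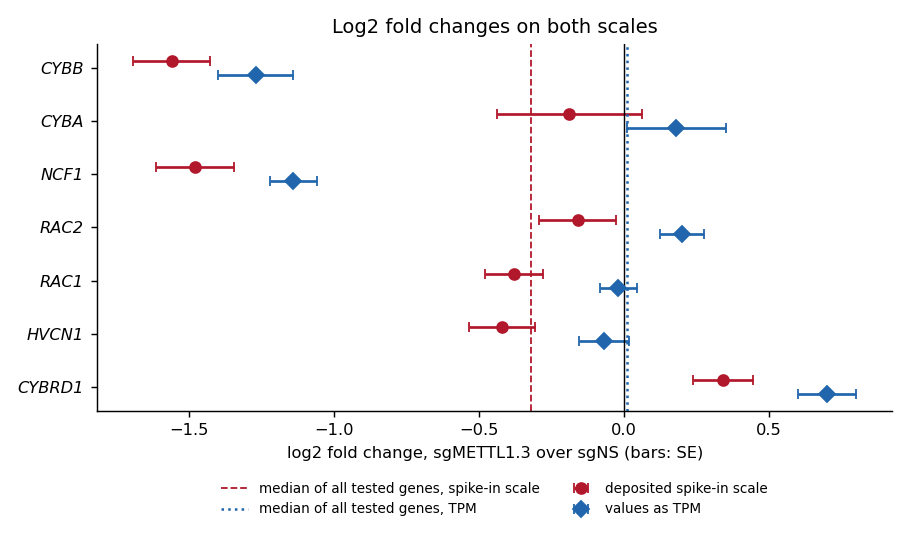
Log2 fold change of sgMETTL1.3 over sgNS (horizontal axis, with SE) for the 7 genes on the deposited spike-in scale and as TPM, with dashed and dotted lines at the median of all tested genes (-0.32 and 0.01). CYBB and NCF1 lie far to the left of both lines, CYBRD1 to the right, and the other 4 move across 0 or near to it when the scale changes.

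Replicate 1 of sgMETTL1.3 deviated in the 7 genes along with their GC content. Relative to the mean of the other sgMETTL1.3 libraries, on the log2(value + 1) scale, it was 0.87 higher for CYBA (mean transcript GC content 64.6%), 0.46 for RAC2 (61.95%) and 0.38 for NCF1 (59.1%). For HVCN1 (52.6%), RAC1 (50.6%) and CYBRD1 (49.8%) the deviations were -0.01, 0.03 and -0.13. For CYBB, with the lowest GC content (43.1%), it was -0.27. Among all tested genes with a GC content of 60 to 65%, the median deviation of this library was 0.558 over 1445 genes, and between 40 and 45% it was -0.115 over 2547 genes. Without this library, 6 of the 7 genes fell and 1 rose on the deposited scale, where 61.4% of tested genes fell and 6.43% rose, though in that fit most genes took their spread wholly from the trend over genes, so its counts are not directly comparable with the others. As TPM without it, 2 fell and 2 rose, where 34.3% of tested genes fell and 36.3% rose.

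**Figure D3:**
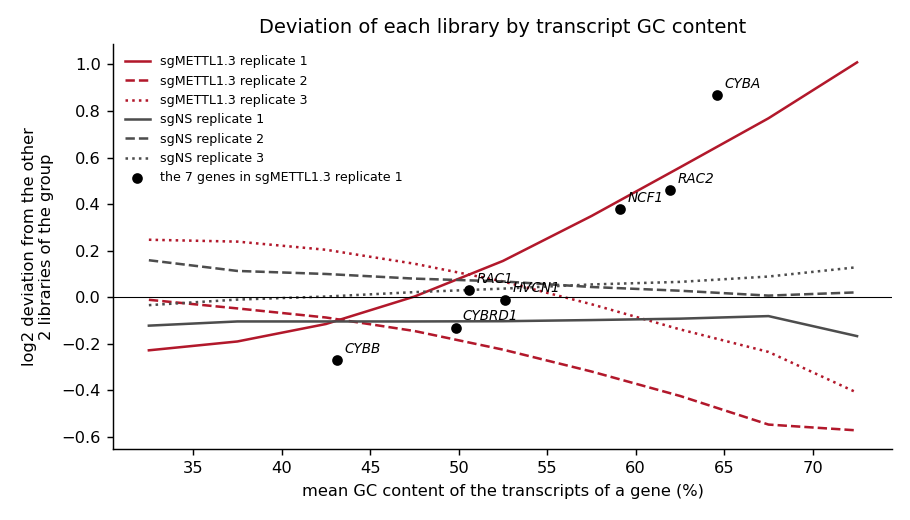
Median log2 deviation of each library from the other 2 of its group (vertical axis) over all tested genes in bins of transcript GC content (horizontal axis, %), with black points for the 7 genes in sgMETTL1.3 replicate 1. The points run from -0.27 for CYBB, at the lowest GC content, to 0.87 for CYBA, at the highest. CYBA lies above the line of that library (0.558 at 60 to 65%) and CYBB below it (-0.115 at 40 to 45%).

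Ratios of one gene to another within a library do not depend on the spike-in factor, and TPM is per length. The CYBB level was 0.318, 0.777 and 0.764% of the CYBA level in the sgMETTL1.3 libraries, against 2.07, 1.95 and 1.91% in the sgNS libraries. The groups were apart, and the mean difference of the log2 ratio was -1.78, and -1.36 without sgMETTL1.3 replicate 1. The NCF1 level was 2.81, 4.02 and 3.74% of the CYBA level after sgMETTL1.3 and 8.43, 9.46 and 9.12% after sgNS, with a mean log2 difference of -1.37, and -1.21 without that library. With NCF1B and NCF1C added to NCF1, the difference was -1.44. The RAC2 level was 146, 109 and 109% of the RAC1 level after sgMETTL1.3 and 106, 99.1 and 103% after sgNS. Here the mean log2 difference was 0.22 and shrank to 0.08 without replicate 1. Of the 4 ratios compared, each had an exact two-sided permutation p of 0.1, also after Benjamini-Hochberg adjustment, which is the smallest that 3 against 3 can give. The ratios with NCF1 were chosen after seeing the data, in place of ratios with NCF4.

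**Figure D4:**
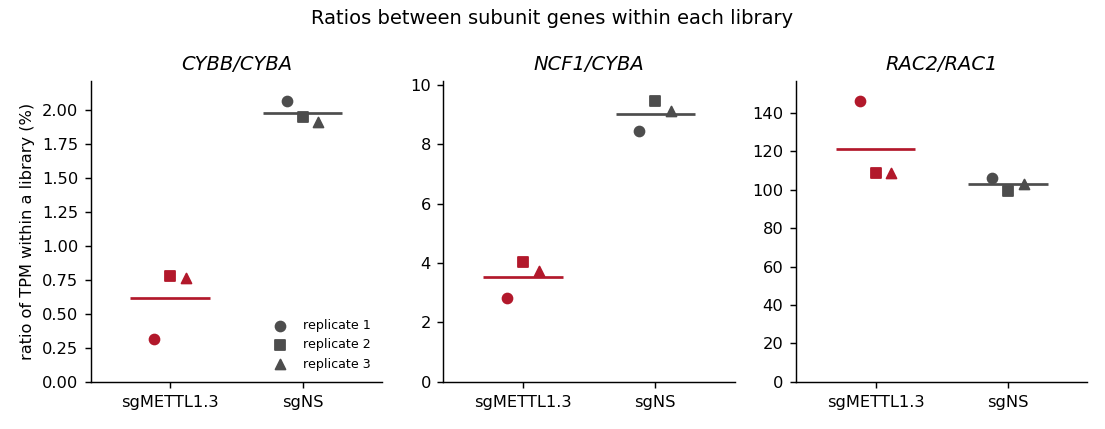
Level of one gene as a percentage of another in the same library (vertical axes, from 0) for CYBB over CYBA, NCF1 over CYBA and RAC2 over RAC1, with replicates by shape and lines at the means. The sgMETTL1.3 libraries lie at 0.318 to 0.777% for CYBB over CYBA, below the 1.91 to 2.07% of the sgNS libraries, and replicate 1 alone lies far from the rest for RAC2 over RAC1.

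The order of levels, in scaled TPM, ran from RAC2 to CYBB in both groups. In the sgMETTL1.3 libraries it was RAC2 (mean 400.5), CYBA (370.2), RAC1 (329.9), CYBRD1 (87.9), HVCN1 (22.8), NCF1 (12.5) and CYBB (2.05), and RAC2 with CYBA and CYBA with RAC1 overlapped in range. In the sgNS libraries it was RAC2 (442), RAC1 (431), CYBA (403), CYBRD1 (69.1), NCF1 (36.3), HVCN1 (30.7) and CYBB (7.95), and RAC2 with RAC1, RAC1 with CYBA and NCF1 with HVCN1 overlapped. NCF1 and HVCN1 stood in opposite order in the groups, and were apart only after sgMETTL1.3. The catalytic chain was the least abundant of the 7 transcripts in both groups.

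Likeness to CYBB was measured, over the 6 libraries, as the root mean square difference in log2(value + 1) after subtracting each gene's sgNS mean, among 9598 genes. The nearest were MTMR2, a phosphoinositide phosphatase (0.0344), CDK1, the mitotic kinase (0.0367), and TMEM30A, a partner of phospholipid flippases (0.0468). That scale understates the fall of a low gene such as CYBB, so nearness does not mean an equal fold change. Mean scaled TPM after sgMETTL1.3 and sgNS were 2.05 and 7.95 for CYBB, 8.0 and 26.2 for MTMR2, 61.6 and 177.3 for CDK1, and 43.2 and 124.4 for TMEM30A. Like CYBB, each of these 3 genes had its highest value in sgNS replicate 2 and its lowest in sgMETTL1.3 replicate 1. The ranking on the same 6 libraries favours such a match, so it adds no separate evidence. The nearest to CYBA were SPI1, which encodes PU.1 (0.0289), ANAPC2, a subunit of the anaphase-promoting complex (0.0335), and ADRM1, a proteasome ubiquitin receptor (0.0402). CYBA was spread mostly by sgMETTL1.3 replicate 1 (529 scaled TPM, against 262 and 319), the library set apart by GC content. The part of GC content in this likeness was not tested. All 3 genes nearest to CYBA were, like CYBA, highest in sgMETTL1.3 replicate 1 and lowest in sgMETTL1.3 replicate 2, a match that the ranking favours in the same way. SPI1 had 152, 79.3 and 95.3 scaled TPM after sgMETTL1.3 and 113, 120.4 and 124 after sgNS (limma adjusted p = 0.528). Without sgMETTL1.3 replicate 1 it fell on the deposited scale (-0.45, limma adjusted p = 9.69e-05) and did not pass as TPM (-0.02).

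The counts of the lists that follow are descriptions, to be read against the 49.3% of all tested genes that fell and the 6.4% that rose on the deposited scale, and the 25.3% and 24.8% as TPM, and none is called particular to its list. Without sgMETTL1.3 replicate 1 the matching shares were 61.4% and 6.43% on the deposited scale, and 34.3% and 36.3% as TPM. Among receptors that trigger the oxidase, genes fell and rose. Of 13 tested receptors and adaptors, 8 fell and 2 rose on the deposited scale, and 6 fell and 5 rose as TPM. CLEC7A, the beta-glucan receptor, had 2.86, 2.87 and 2.80 scaled TPM after sgMETTL1.3, against 8.82, 8.92 and 9.33 after sgNS, and fell (log2 fold change -1.38, limma adjusted p = 1.41e-06; -1.08 as TPM). TLR2 (-1.47; -1.14 as TPM) and TLR4 (-0.85; -0.50 as TPM), receptors for microbial products, fell on both scales. FPR1, the formyl peptide receptor, chosen after its values were seen, rose to 47.0, 43.0 and 45.5 after sgMETTL1.3, against 28.5, 28.7 and 29.8 after sgNS (log2 fold change 0.62; 0.97 as TPM). Of 19 tested kinases and lipid enzymes, 13 fell and 2 rose, and 8 fell and 2 rose as TPM, which became 10 and 6 as TPM without sgMETTL1.3 replicate 1. PIK3CG, the phosphoinositide 3-kinase of chemoattractant signalling, had 24.9, 23.2 and 26.3 scaled TPM after sgMETTL1.3, against 55.4, 59.8 and 57.1 after sgNS (log2 fold change -1.18, limma adjusted p = 1.48e-06; -0.83 as TPM). SYK, the kinase downstream of CLEC7A and Fc receptors, fell by 1.03, and PRKCB, a protein kinase C that phosphorylates NCF1, fell by 0.95, and both fell as TPM (-0.67 and -0.60). Their median log2 fold changes were -0.48 for receptors and -0.45 for kinases, against -0.32 for all tested genes, and -0.13 and -0.10 as TPM, against 0.01.

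Genes around the Rac switch came next. Of 18 tested genes around the Rac switch, 12 fell and 1 rose, and 5 fell and 3 rose as TPM, with medians of -0.36 and -0.02, near those of all genes. As TPM without sgMETTL1.3 replicate 1, 6 fell and 7 rose. TIAM1, a Rac exchange factor, had 3.96, 3.24 and 3.22 scaled TPM after sgMETTL1.3, against 8.16, 8.90 and 8.68 after sgNS (log2 fold change -1.10, limma adjusted p = 1.1e-05; -0.80 as TPM). PAK2 (-0.85; -0.49 as TPM) and PAK1 (-0.78; -0.42 as TPM), kinases activated by Rac, fell on both scales. The single gene that rose was PREX1, a Rac exchange factor, chosen after its values were seen, at 91.3, 63.1 and 71.4 after sgMETTL1.3, against 48.0, 53.2 and 50.7 after sgNS (log2 fold change 0.55; 0.90 as TPM). Of 13 transcription factors, 7 fell and 0 rose (limma; 1 higher at an unadjusted p under 0.05), and 5 fell and 3 rose as TPM, with medians of -0.37 and -0.02, also near those of all genes. Without replicate 1, 9 fell and 1 rose on the deposited scale. IRF8, the partner of PU.1 in monocytes, had 94.5, 80.3 and 96.0 after sgMETTL1.3, against 154.5, 172 and 169 after sgNS (log2 fold change -0.87, limma adjusted p = 1.73e-05; -0.51 as TPM), and ELF1, an ETS factor, fell by 1.00 (-0.64 as TPM).

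Enzymes that handle the product, supply the substrate or resemble CYBRD1 changed in both directions. Of 11 tested superoxide and peroxide enzymes, 6 fell and 0 rose (limma; 0 higher at an unadjusted p under 0.05), and 3 fell and 2 rose as TPM. Without sgMETTL1.3 replicate 1, 9 fell and 0 rose on the deposited scale (limma; 0 higher at an unadjusted p under 0.05), and 4 fell and 5 rose as TPM. PRDX6, a peroxiredoxin that is also a phospholipase, fell by 1.03 (limma adjusted p = 3.18e-06; -0.67 as TPM), and the mitochondrial PRDX3 (-0.87; -0.51 as TPM) and the secretory-pathway PRDX4 (-0.56; -0.20 as TPM) fell on both scales. Of 7 tested genes of NADPH supply, 1 fell and 1 rose, and 0 fell and 5 rose as TPM (limma; 0 lower at an unadjusted p under 0.05). TALDO1, transaldolase, fell by 0.34 (limma adjusted p = 0.0227) and did not pass as TPM (0.03), and PGLS, the lactonase of the pentose phosphate pathway, passed on neither scale (-0.38; -0.02 as TPM) but fell on both without replicate 1 (-0.65; -0.23 as TPM). Without replicate 1, 3 genes of NADPH supply fell and 0 rose (limma; 0 higher at an unadjusted p under 0.05), and 1 fell and 5 rose as TPM. Of 8 tested genes listed with ferric reductases and iron import, 3 fell and 1 rose, and 3 fell and 3 rose as TPM. STEAP1 (-0.92; -0.59 as TPM), STEAP3 (-0.83; -0.48 as TPM) and FRRS1 (-0.59; -0.24 as TPM) fell on both scales. The single one that rose on the deposited scale was CYB561D1 (0.55; 0.87 as TPM), a cytochrome b561 family gene chosen after its values were seen. Without replicate 1, 5 of these genes fell and 1 rose on the deposited scale.

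**Figure D5:**
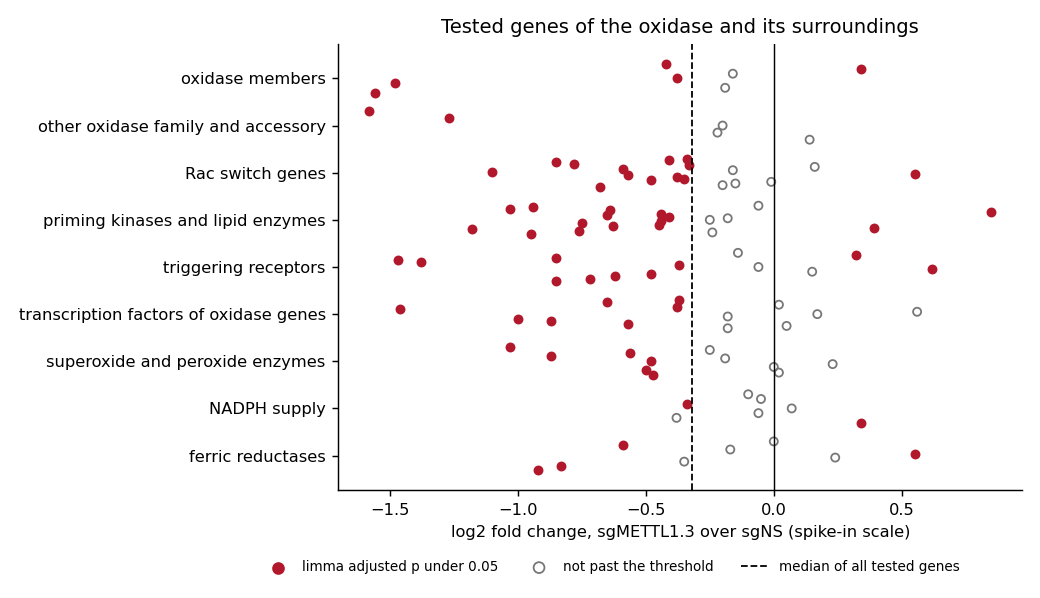
Log2 fold change of sgMETTL1.3 over sgNS on the deposited scale (horizontal axis) for each tested gene of 9 lists, with filled points for limma adjusted p under 0.05 and a dashed line at the median of all tested genes (-0.32). The lists span both sides of the dashed line, with CYBB and NCF1 among the points farthest to the left.

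The cells carried RNA of the monocytic lineage, with gaps. Of 10 monocyte markers, 8 were tested, while CD14 and CD163 stayed under 1 in all 6 libraries, and the summed level of the list was 614 to 802 scaled TPM after sgMETTL1.3 and 1119 to 1200 after sgNS. Most of that difference was LYZ, lysozyme, at 69.2, 66.5 and 80.6 scaled TPM after sgMETTL1.3 and 385, 412 and 414 after sgNS (log2 fold change -2.47, limma adjusted p = 1.25e-08; -2.11 as TPM). The other 9 markers summed to 548 to 733 scaled TPM after sgMETTL1.3 and 735 to 788 after sgNS, and as TPM, in the opposite direction, to 687 to 742.5 after sgMETTL1.3 and 663 to 673 after sgNS. Among the 8, 6 fell and 0 rose on the deposited scale (limma; 0 higher at an unadjusted p under 0.05), and 4 fell and 1 rose as TPM. Of 6 granulocyte markers, 3 were under 1 in all libraries, and the sum was 30.7 to 67.5 scaled TPM after sgMETTL1.3 and 88.7 to 99.4 after sgNS, and as TPM 38.7 to 68.4 after sgMETTL1.3 and 77.3 to 85.0 after sgNS. Most of that sum was AZU1, at 59.8, 26.5 and 34.1 scaled TPM after sgMETTL1.3 and 77.5, 80.1 and 86.5 after sgNS. Of the 3 tested, AZU1 and PRTN3, proteins of primary granules, fell (-1.08 and -1.36, and -0.73 and -1.05 as TPM). LTF, lactoferrin of secondary granules, had 1.53, 1.04 and 1.14 scaled TPM after sgMETTL1.3 and 0.565, 0.356 and 0.374 after sgNS. It met the filter only through the group where it was higher, so its log2 fold change (0.64, and 0.78 as TPM) is no support for a rise. LTF did not pass the filter without sgMETTL1.3 replicate 1. Markers of other cells were low: CD3D, CD3G, HBB, KRT18 and KRT19 were listed at 0 in every library, and sums were at most 8.24 for 4 B cell markers, 0.266 for 5 erythroid and megakaryocytic markers, 0.123 for 4 epithelial markers and 4.17 for 5 fibroblast and endothelial markers. Of 7 T and natural killer cell markers, 5 were under 1 in all libraries, and nearly all of the sum was NKG7, at 239, 156 and 185 after sgMETTL1.3 and 303.5, 318 and 338 after sgNS. LYZ and the granulocyte marker sum, mostly AZU1, were lower after sgMETTL1.3 on both scales, as CYBB and NCF1 were. The sum of the other monocyte markers depended on the scale, and the part of these markers in the results for CYBB and NCF1 was not tested.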

How the data were processed

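RNA-seq libraries with ERCC spike-ins were prepared by a poly(A) kit from 300 ng RNA, per the labels' protocols; extraction is given as TRIZOL there and as QIAzol in the series' design text. The submitters' processing notes list cutadapt, STAR, RSEM, GRCh38 and hg38; no source used here gives versions, annotation or strand. The deposited signal was read from its values as TPM times 1 factor per library, since 92 spike-in rows sum to 38252 in each. Spike-ins were left out. Values of the 12449 genes reaching 1 in 3 or more of the 6 libraries were tested as log2(value + 1) by limma 3.58.1 (R 4.3.3; trend, robust, Benjamini-Hochberg at 0.05). TPM were recomputed without spike-ins. Ratios were tested with scipy 1.17.1. Annotation and transcripts came from GENCODE release 29, a GRCh38 annotation that may not be the submitters' own, and upstream windows from RefSeq (4 of 8 members matched).

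The members and lists were chosen with earlier results of these data known. Named genes were the members, METTL1, the 3 tested genes of smallest p in each list, and the 3 profiles most like CYBB and CYBA; some genes so named are not reported here, and a few others are marked where named as chosen after their values were seen. Fits were tested on simulated data. Alternatives covered scaling, filter, pseudocount, variance model, a replicate block, each library left out and, chosen after seeing the data, a GC correction (94.3% of tested genes had a GC value).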

Additional observations from a re-analysis of the deposited data

How the results depend on the processing

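CYBB, NCF1 and METTL1 kept direction and side of the threshold under all 18 alternatives, and CYBRD1 under 17 of 18. CYBA ranged from -0.47 to 0.03 with 1 library left out, and had the opposite sign with values as TPM (0.18), median-ratio rescaling (0.14), quantile normalization (0.22) and without sgMETTL1.3 replicate 2 (0.03), RAC2 with the same 3 scalings (0.20, 0.17 and 0.21) and as TPM without sgMETTL1.3 replicate 1 (0.12), RAC1 with quantiles (0.01) and as TPM without that library (0.04), and HVCN1 as TPM without it (0.00); apart from RAC2 at 0.12, none of these passed. With GC correction CYBA (-0.45) and RAC2 (-0.37) fell on the deposited scale, and as TPM with GC correction neither passed.

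The 4 lower genes became 2 with values as TPM, median ratios, quantiles, TPM with GC correction and TPM without sgMETTL1.3 replicate 1, and the 1 higher became 2 with the last. Leaving out 1 library gave 3 to 6 lower (3 without sgNS replicate 3) and 0 to 1 higher (0 without sgNS replicate 1, where CYBRD1 missed the threshold). The planned ratios with NCF4 were not run. All genes higher, 797, became 3093 as TPM, 2869 with median ratios, 2978 with quantiles, 510 among genes averaging 5 or more, where fewer were tested, 4445 for TPM without sgMETTL1.3 replicate 1 and 3850 for GC-corrected TPM. All genes lower, 6142, became 3147 as TPM, 3603 with median ratios, 3231 with quantiles and 4051 for GC-corrected TPM. Leaving out 1 library gave 534 to 1037 higher (534 without sgMETTL1.3 replicate 3, 538 without sgNS replicate 1) and 4880 to 7538 lower. METTL1 ranged from -1.50 to -1.29, and the log2 ratio differences from -2.0 to -1.36 for CYBB/CYBA, -1.47 to -1.21 for NCF1/CYBA, -1.52 to -1.29 with the copies and 0.08 to 0.30 for RAC2/RAC1.

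Libraries with the same replicate number did not deviate together (correlations -0.0137, 0.00455 and -0.0385 across genes), so no pairing by number was seen. With 3 libraries per group, and replicate 1 of sgMETTL1.3 set apart by GC content, such correlations cannot exclude a pairing. With a replicate block 4 members were lower and 1 higher, as without it, and no member changed its call, with 814 genes higher and 5861 lower. In this fit and in the GC correction, as without sgMETTL1.3 replicate 1, most genes took their spread wholly from the trend, so these counts are not directly comparable with the others. Depth is unknown, so no counting error is given for low values such as those of CYBB.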

Other observations

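Other members of the NADPH oxidase family were barely present. Of 14 rows of oxidase relatives and accessory genes, 9 stayed under 1 scaled TPM in every library and were not tested. NOX1, the oxidase of colon epithelium, had 0.492, 0.624 and 0.475 scaled TPM in the sgMETTL1.3 libraries, against 0.102, 0.147 and 0.109 in the sgNS libraries. NOX5, a calcium-regulated oxidase, had 0.113, 0.0416 and 0.0759 after sgMETTL1.3 and 0.395, 0.270 and 0.314 after sgNS. Both genes kept the groups apart, in opposite directions, at levels under the filter and with the reads behind them unknown. NOX3 and NOX4 were listed at 0 in all 6 libraries. MAPK3, which encodes the kinase ERK1 and was chosen after its values were seen, had 42.0, 25.7 and 28.3 scaled TPM after sgMETTL1.3, against 16.2, 18.2 and 16.3 after sgNS. It rose by 0.85 on the log2 scale (limma adjusted p = 0.00153; 1.20 as TPM; 0.64 without sgMETTL1.3 replicate 1, its highest library).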
